A study of Mus musculus with 4 samples.

Results

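Cytosolic ribosomal protein genes were described by where CTCF lay around their starts in calf muscle. The genes were taken from the GENCODE M21 annotation of the mouse genome (mm10) as autosomal protein-coding genes whose symbol is Rpl or Rps followed by a number and at most 1 letter, or Rplp0 to Rplp2 or Rpsa. This rule found 76 of 20807 autosomal protein-coding genes, and no measured value entered it. They comprised 40 genes of the large subunit, 29 of the small subunit, the 3 stalk genes Rplp0, Rplp1 and Rplp2, and 4 paralogues with restricted roles (Rpl3l, Rpl10l, Rpl39l and Rps27l). They were spread over 18 chromosomes, with 14 on chromosome 7.

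ChIP-seq, which recovers and sequences the DNA bound by a protein, was done for CTCF in gastrocnemius of B6CASTF1/J females, an adult hybrid mouse strain, at 2 months of age. The 4 libraries form pool E and pool F, each pool made of 2 gastrocnemius biosamples and sequenced as 2 technical replicates that the authors merged. All libraries shared the antibody (CTCF), the frozen-tissue protocol, fragments of 200 to 600 bp and 1 control alignment, and no treatment or genotype was compared. The deposited peak lists hold no read counts, so depth is unknown, and mapping to mm10 leaves the parental alleles of the hybrid unresolved. Peaks do not measure expression, so muscle markers could not be used to check the tissue, and a bulk tissue does not tell in which of its cells a site is bound.

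Ribosomal proteins fold onto the ribosomal RNAs in the nucleolus to build the large and small subunits that carry out all cytosolic translation, and muscle fibres raise or lower their ribosome content as they grow or waste. Their messenger RNAs begin with a run of pyrimidines, through which the growth regulator mTOR controls their translation, and their introns often carry small nucleolar RNAs that guide modification of ribosomal RNA. CTCF recognises a long motif through its zinc fingers and, where a pair of motifs points at each other, can hold cohesin at the base of a chromatin loop. It also binds close to many promoters.

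A summit is the position of highest signal inside a peak, and its strength is the authors' score for that peak, whose scale was not stated. Peaks enter a list at an irreproducible discovery rate (IDR) of 0.05 or less, a measure of how alike a peak ranks in a pair of inputs. The conservative list rests on both pools and holds 42163 peaks with a median strength of 246; the combined list (49649 peaks) and the lists of pool E (50899) and pool F (33784) are set beside it. Negative positions lie upstream of the gene start, which is the 5′ end of the gene record.

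The motif sites below underlie strong summits within 1000 bp of a member's start that carry a match. They are ordered by strength, from 640.5 at Rpl26 to 290.3 at Rpl27. Strong summits without a match, such as that of Rpl10a, are not among them. Capitals mark the 14 bases that match the CTCF consensus with at most 2 mismatches, read along the motif with 8 bases on each side, and the letters come from the RefSeq copy of GRCm38 (mm10).
Rpl26, chr11:68901457-68901486, plus strand: cctccgagCCGCTAGATGTCGCtaaactcc
Rps24, chr14:24487118-24487147, minus strand: tgaaggagCCGCTAGATGGCGAtctagaag
Rpl11, chr4:136053472-136053501, minus strand: aggacagtCCACTAGAGGTGGCagcgccac
Rpl37, chr15:5116334-5116363, minus strand: tcagacacCCAGTGCGTGGCGGcgcccctg
Rpl3, chr15:80091264-80091293, minus strand: cggggctcCCGCCAGGGGGCGTccgtgcac
Rpl5, chr5:107900457-107900486, plus strand: tcctcctaCCGGCAGGGGGCGAtagcccgc
Rps29, chr12:69159734-69159763, minus strand: atttcacgCCAGTAGGTGTCAGtagtgagt
Rpl38, chr11:114668450-114668479, plus strand: aatctgaaCCAGAAGAGGGCAGggctgctg
Rps19, chr7:24883977-24884006, plus strand: agactccgGCACTAGATGGCGGagctgaac
Rpl27, chr11:101442118-101442147, minus strand: ctactctgCCACTAGGAGGAGGacagagtc
Of the 10 sites, those of Rps29, Rpl38 and Rps19 had 1 mismatch and the other 7 had 2, so none was an exact match.

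The bases just before the start of Rpl5 and of Rpl38 show how close such a site can lie to the first transcribed base, which would follow the last letter. Both stretches run along the gene for 150 bases with the motif in capitals.
Rpl5, chr5:107900352-107900501, plus strand: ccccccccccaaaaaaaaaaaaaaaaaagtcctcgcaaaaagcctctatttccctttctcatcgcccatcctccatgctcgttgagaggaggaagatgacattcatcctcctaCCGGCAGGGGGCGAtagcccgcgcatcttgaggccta
Rpl38, chr11:114668374-114668523, plus strand: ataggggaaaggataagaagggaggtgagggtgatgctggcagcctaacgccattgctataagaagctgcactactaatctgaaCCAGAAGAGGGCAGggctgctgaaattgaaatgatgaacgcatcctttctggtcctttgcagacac
Rpl5 encodes a large subunit protein mutated in Diamond-Blackfan anaemia, and Rpl38 a large subunit protein that the mouse needs for normal patterning of the vertebrae. At both genes the motif was read in the direction of transcription. The start of Rpl5 was CpG-rich and that of Rpl38 was not.

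Of the 76 members, 26 had a summit no farther than 1000 bp from the start, or 34.2% (95% Wilson interval 24.5 to 45.4, which covers counting error only). Over all autosomal protein-coding genes the share was 21.1%, below that interval. Within 5000 bp the members stood at 46 of 76, or 60.5% (interval 49.3 to 70.8), and all genes at 38.2%. The median distance from the start to the nearest summit was 3067.5 bp for the members and 9389 bp for all genes. The lower and upper quartiles were 326.0 and 7156 bp for the members, against 1591 and 29433 bp for all genes. No test was made: the members were not sampled, and neighbouring genes share peaks.

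**Figure D1:**
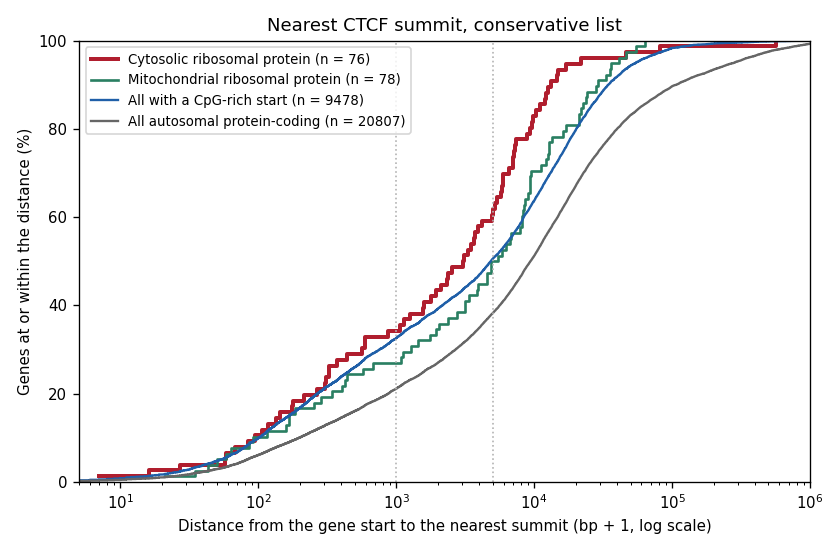
Cumulative share of genes (vertical axis, %) with a nearest summit of the conservative list at or within the distance on the horizontal axis (bp plus 1, log scale); dotted lines mark 1000 and 5000 bp. The ribosomal protein genes (n = 76) run above all autosomal protein-coding genes (n = 20807) at both lines, at 34.2% against 21.1% and 60.5% against 38.2%.

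Part of the contrast with all genes was shared by starts of the same base composition. A start was called CpG-rich when the 250 bp to each side had at least 55.0% GC and an observed over expected CpG ratio of at least 0.6. This held for 55 of 76 members (72.4%) and for 45.6% of all genes. Among all 9478 genes with such a start, 32.6% had a summit within 1000 bp and 50.5% within 5000 bp. Both values lie inside the intervals of all 76 members. Among CpG-rich starts alone the members stood at 20 of 55 (36.4%, interval 24.9 to 49.6) within 1000 bp. Within 5000 bp they stood at 32 of 55 (58.2%, interval 45.0 to 70.3). The 21 members whose start was not CpG-rich had a summit within 1000 bp in 6 cases (28.6%, interval 13.8 to 50%) and within 5000 bp in 14 cases (66.7%, interval 45.4 to 82.8). All genes with such starts stood at 11.5% and 27.9%, values below both intervals. The sets were not matched in composition. Most of the 21 members missed only the GC limit, such as Rpl38 (54.3% GC, ratio 0.85) and Rpl23a (50.9% GC, ratio 0.68). So did the 6 with a summit within 1000 bp, except Rpl27 (59.5% GC, ratio 0.57), which missed only the ratio. How many of all genes with such starts missed a single limit was not counted. The members also lay in denser surroundings, with a median of 5 other coding starts within 100 kb against 3, and the part of this density in the result was not tested.

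The genes of the large and small subunits stood close to each other. Within 1000 bp a summit lay at 15 of 40 large subunit genes (37.5%, interval 24.2 to 53.0) and at 11 of 29 small subunit genes (37.9%, interval 22.7 to 56.0). Within 5000 bp the counts were 26 of 40 (65.0%) and 17 of 29 (58.6%). None of the 3 stalk genes and none of the 4 paralogues had a summit of the conservative list within 1000 bp. With so few genes, the intervals for 0 of 3 and 0 of 4 reach 56.1% and 49%.

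The strongest summit of all members lay at Rpl26, which encodes a large subunit protein near the exit of the nascent chain. It lay 116 bp upstream of the start, in the peak chr11:68901293-68901628, with a strength of 640.5 and rank 73 of 42163. More peaks flanked it at −4256 bp (431) and +3340 bp (508), the latter in an intron of Rpl26. Rpl11, whose protein joins that of Rpl5 and a small ribosomal RNA in a particle that restrains Mdm2, had a summit 67 bp upstream (chr4:136053310-136053640) of strength 536. The partner gene Rpl5 had its summit 26 bp upstream with a strength of 455. Rpl10a, which encodes the protein of the mobile L1 stalk, had its summit 6 bp upstream (chr17:28328294-28328630) with a strength of 537 and no consensus match. The ranks of these starts ran from 73 to 3659, except that of Rpl5, at 9132.

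The summit of Rps24, a small subunit gene mutated in Diamond-Blackfan anaemia, lay 15 bp downstream of the gene start (chr14:24486960-24487300) with a strength of 546. That start belongs to a noncoding transcript, and the nearest protein-coding transcript of the annotation's basic set starts 3556 bp away. The same summit lies 82 bp from the start of Polr3a, the gene of the largest RNA polymerase III subunit, which is transcribed the other way. A like caution holds for Rpl3, whose summit at +588 bp (478) lies 54 bp from the start of Syngr1 and 8462 bp separate the start of its gene record from the nearest basic coding start. Rps2 is the other member whose record starts over 1000 bp from a basic coding start, at 1947 bp. Conversely Rps14, with its nearest summit at 12242 bp, has one 257 bp from another of its coding transcript starts. Counted from any protein-coding transcript start, 35.5% of the members and 24.8% of all genes had a summit within 1000 bp.

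**Figure D2:**
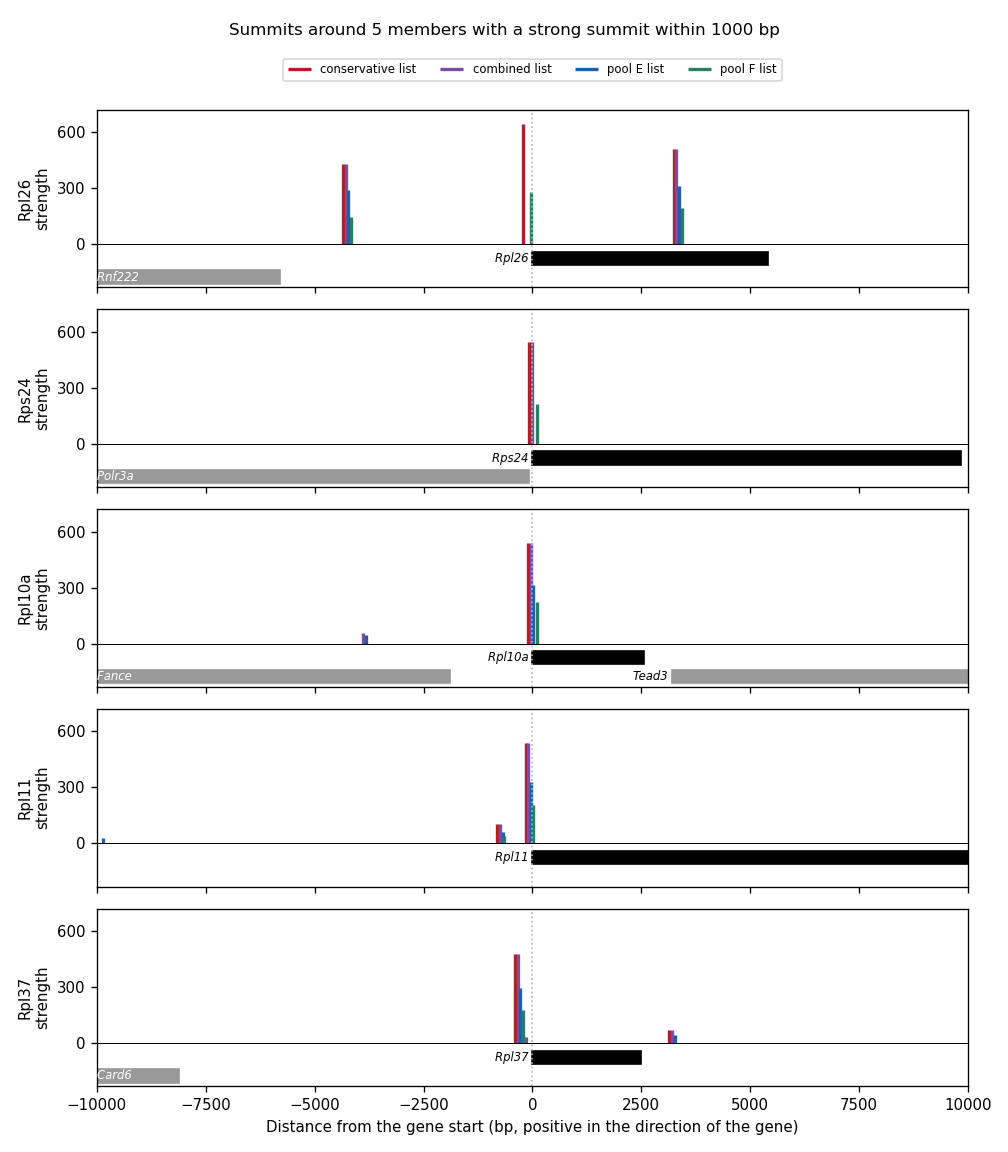
Summits of the 4 lists (vertical bars, height is the authors' strength score; the lists are drawn slightly apart so that they can be seen) around 5 members with a strong summit within 1000 bp, against distance from the gene start (bp). Black bars are the member gene and grey bars other coding genes; Rpl26 has no pool E or combined bar at its start, and the summit of Rps24 lies where Polr3a also begins.

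Besides these, members with a strong summit within 1000 bp upstream included Rpl13a (−327 bp, 447), Rps15 (−94 bp, 443), Rps29 (−591 bp, 443), Rps19 (−373 bp, 415), Rps20 (−83 bp, 349), Rpl32 (−323 bp, 333), Rpl27 (−133 bp, 290) and Rps26 (−173 bp, 260). Rps19 is the gene most often mutated in Diamond-Blackfan anaemia, and the product of Rpl13a can also silence inflammatory messenger RNAs away from the ribosome. Rpl38 had a summit at −57 bp (421) and another in its intron at +612 bp (317). Rpl37 had summits at −308 bp (479) and −105 bp (35.8). Both summits of Rpl37 carry the same strengths in the 2 inputs of the list (298 and 179), so they are not separate measurements of those inputs.

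Most summits just downstream of a start were weaker. Rpl23a, whose protein lies where the signal recognition particle docks, had one at +305 bp (189), and Rps9, a gene of the decoding region, one at +265 bp (107). Rpl34 (+869 bp, 126), Rpl15 (+442 bp, 91.8), Rpl22 (+560 bp, 71.9) and Rps27a (+309 bp, 68.7), which encodes a fusion with ubiquitin, completed the downstream ones, and Rps15a had a weak summit upstream (−212 bp, 71.2). The summits of Rpl15 and Rps27a lay nearer to the starts of Nkiras1 (187 bp) and Clhc1 (150 bp).

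The nearest summit was upstream of the start at 17 of the 26 members (65.4%) and downstream at 9. Over the 4399 genes with a summit within 1000 bp it was upstream at 55.2%. It lay in the 400 bp before the start at 16 of 26 members (61.5%, interval 42.5 to 77.6), against 41.2% over all such genes and 44.4% over those with a CpG-rich start. The share was 64.3% over proteasome genes, 57.1% over mitochondrial ribosomal protein genes, 41.7% over translation factor genes and 6 of 10 over ribosome biogenesis genes. Of the 31 different summits within 1000 bp of a member, 19 were intergenic, 5 lay in introns, 5 in untranslated regions and 2 in noncoding exons. These classes were not counted over all summits near coding starts, so they do not set the members apart.

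**Figure D3:**
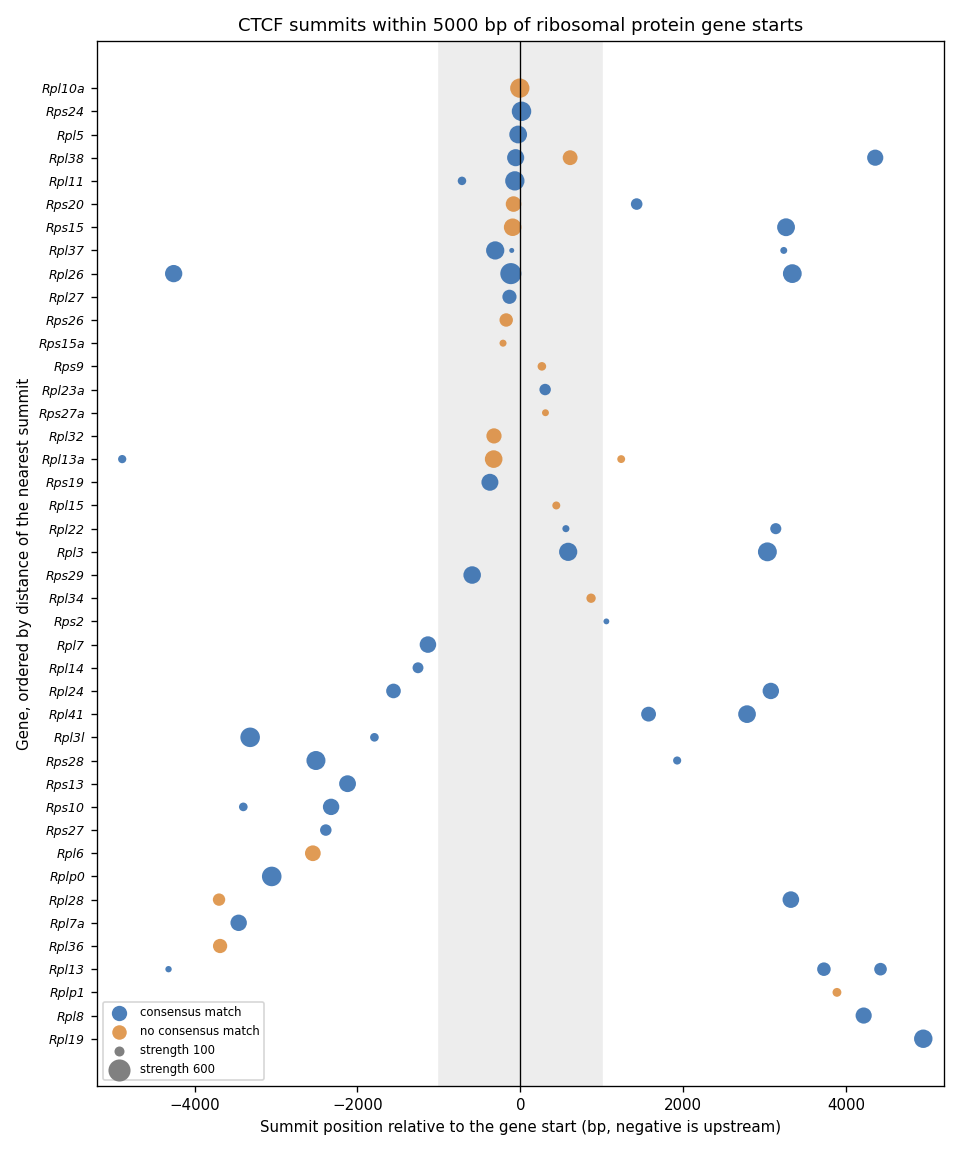
Summits of the conservative list within 5000 bp of the start (horizontal axis, bp, negative is upstream) for 42 of the 46 members that have one, nearest first; point area shows strength, colour the presence of a consensus match, and the grey band 1000 bp to each side. Large points gather just upstream of the start, while most points just downstream are small.

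The 20 further members with a nearest summit between 1000 and 5000 bp included strong distal ones. Rplp0, which forms the base of the stalk that recruits elongation factors, had one at −3052 bp (552), and Rps28 one at −2509 bp (521) with an exact consensus match. Rpl3, which is not among these 20 because its nearest summit lies within 1000 bp, also had one at +3034 bp (513). It lies in an intron of the gene record and nearer to the start of Syngr1 (2500 bp). Some of the nearest summits of the 20 members sat at the start of another gene. That of Rpl7 lay 22 bp from the start of Rdh10, that of Rpl36 41 bp from 2410015M20Rik and that of Rpl41 44 bp from Zc3h10. Of the 70 different summits within 5000 bp of a member, 18 lay nearer to another coding start than to the member. The same count was not made for all genes.

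At the edges of the windows, Rpl34 lay just inside 1000 bp (869 bp) and Rps2 just outside (1057 bp), and Rpl19 just inside 5000 bp (4948 bp) and Rpl30 just outside (5036 bp). Of the 30 members with none within 5000 bp, 17 had one within 10000 bp. The farthest nearest summits were those of Rpl10l (568946 bp), Rpl39l (81308 bp), Rps7 (46416 bp), Rpl35 (21974 bp) and Rps6 (16961 bp), the last encoding the small subunit protein that S6 kinase phosphorylates.

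The paralogues differed widely among themselves. Rpl3l, which replaces Rpl3 in the ribosomes of mature heart and skeletal muscle, was the one nearest to CTCF, with summits at −1791 bp (108) and −3317 bp (551). Both lay nearer to the start of its neighbour Ndufb10, a gene of respiratory complex I. The stronger lay 25 bp from that start and the weaker 1551 bp. Rps27l, a p53 target, had its nearest summit at −7014 bp (435). Rpl10l and Rpl39l, both used in male germ cells, were the 2 members farthest from any summit.

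Genes that the rule leaves out show the same range. Rps3a1, which encodes a small subunit protein but has a symbol the rule does not take, had a summit 42 bp upstream with a strength of 631. Of the X-linked genes, Rpl10 (−28 bp, 139), Rps4x (−47 bp, 415) and Rpl36a (−71 bp, 398) had one close to the start, and the nearest of Rpl39 lay at 10653 bp. Rpl7l1 had one at −513 bp (422). The nearest lay at 3836 bp for Rack1, and at 9121 bp, 6607 bp and 9315 bp for Rpl22l1, Rpl36al and Fau.

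The single-pool lists gave the same order of members and all genes. Within 1000 bp the members stood at 39.5% in pool E and 31.6% in pool F, and all genes at 26.5% and 16.6%. In the combined list the values were 43.4% and 25.7%. Genes with a CpG-rich start stood at 41.3% in pool E, 25.5% in pool F and 40.2% in the combined list, inside the members' intervals for that window. Within 5000 bp the members stood at 68.4% in the combined list, 63.2% in pool E and 56.6% in pool F, and all genes at 43.6%, 44.2% and 32.2%. Genes with a CpG-rich start stood at 58.3%, 59.1% and 42.3%, of which the last lies below the members' interval of 45.4 to 67.1%. A summit within 1000 bp was present in every one of the 4 lists at 20 members, in at least 1 list at 37 and in no list at 39. These counts have no value over all genes beside them, so they do not set the members apart.

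**Figure D4:**
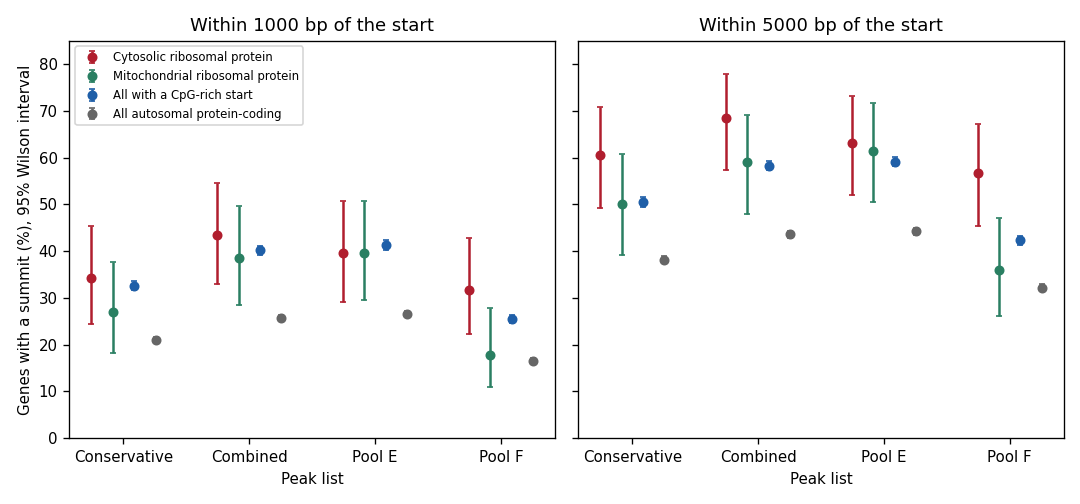
Genes with a summit near the start in each of the 4 peak lists, within 1000 bp (left) or 5000 bp (right); points are shares (vertical axis, %) and bars 95% Wilson intervals, for cytosolic ribosomal protein genes, mitochondrial ribosomal protein genes, all genes with a CpG-rich start and all autosomal protein-coding genes. The cytosolic ribosomal protein genes lie above all genes in each list, by 34.2% against 21.1% at 1000 bp in the conservative list.

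The mitochondrial ribosomal protein genes, which build the ribosome of the organelle, had a similar share of CpG-rich starts (70.5% of 78). A summit lay within 1000 bp at 26.9% of them (interval 18.3 to 37.7) and within 5000 bp at 39 of 78, with intervals that overlap those of the cytosolic genes. In pool E they stood level with the cytosolic genes, at 39.7% against 39.5% within 1000 bp and 61.5% against 63.2% within 5000 bp. In pool F they stood at 17.9% against 31.6% and at 35.9% (interval 26.1 to 47.0) against 56.6% (interval 45.4 to 67.1). The 48 proteasome genes stood at 29.2% and 47.9% in the conservative list.

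The strongest summit within 5000 bp had a median strength of 396 over the 46 members that have one, against 290 over all genes with one, 233 over mitochondrial ribosomal protein genes and 273 over proteasome genes. It was 361 over translation factor genes, 399 over ribosome biogenesis genes and 499 over growth signalling genes, so the members' median was not the highest of these lists. In the pool E list the medians were 248 for the members and 146 for all genes, and in pool F 150 and 124. Of the 70 member summits, 44 (62.9%) ranked in the stronger part of the list when it is split at its median rank, against 48.5% of all 9121 summits within 5000 bp of an autosomal coding start.

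At 51 of the 70 summits (72.9%) both pool lists held a partner that overlapped reciprocally by 50%, against 58.3% of all 9121. A partner in pool E alone was found for 9, in pool F alone for 5 and in neither for 5. The first input was the stronger at 69 of the 70. The log2 ratio of the 2 input strengths had a median of 0.83 and an SD of 0.35 over the 70, and a median of 1.03 and an SD of 0.42 over all 9121. The inputs matched the ranked pool E list at 69 of the 70 and the ranked pool F list at 67. The ratio was lowest at the start of Rpl38 (0.00) and highest in Rpl23a (1.85).

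The threshold on IDR removed some of the strongest candidates at member starts. At Rplp0 the ranked list held a candidate 161 bp upstream with a strength of 622, and at Rpl36 one 86 bp upstream with a strength of 618. Within 5000 bp of the members only the summit of Rpl26 was stronger. Their IDRs were 0.0840 and 0.133, so the conservative list leaves them out, though the combined list holds both. Rplp0 had this summit in the lists of pool E (345) and pool F (282), and Rpl36 in that of pool E (337). The reverse held at Rpl26, where the ranked pool E peak had a strength of 364 and an IDR of 0.272, so that it is missing from the pool E list. The pool F peak there had 281 and 0.0334, and the combined list lacks the summit. At Rps24 the pool E peak (335) missed the threshold narrowly, at 0.0503.

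Over the whole ranked list, 671 of 1045 candidates with a strength of 600 or more passed (64.2%), and 257 of 567 at 620 or more (45.3%). Between 200 and 400 every candidate passed, and between 500 and 600 the share was 98.7%. A start with no listed summit is therefore not always one without a strong peak. When every ranked candidate above the median of the conservative list was added, a setting chosen after seeing these values, 36.8% of members and 21.6% of all genes had a summit within 1000 bp.

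**Figure D5:**
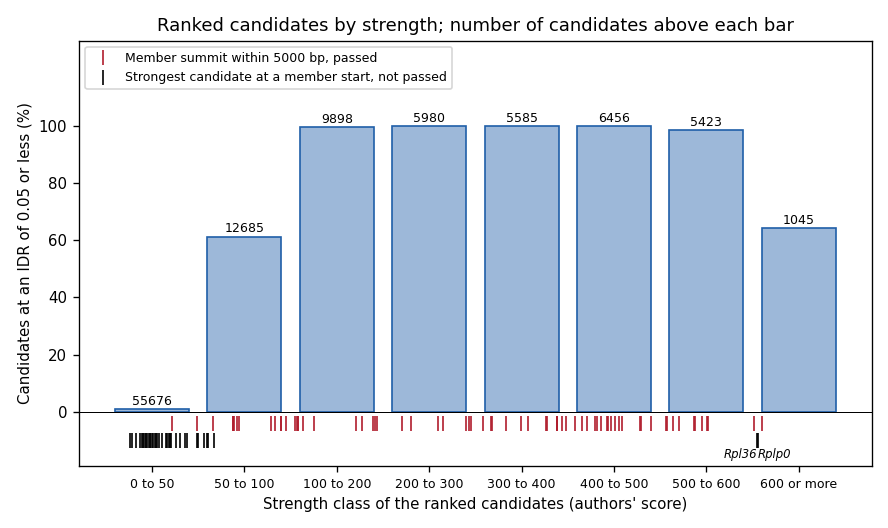
Share of ranked candidates that reached an IDR of 0.05 or less (bars, %) in 8 strength classes of the authors' score, with the number of candidates above each bar. Red ticks are member summits within 5000 bp that passed and black ticks the strongest candidate at each member start that has none; Rplp0 and Rpl36 stand apart at 622 and 618 in the class where 64.2% passed.

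The 9 other members with a summit within 1000 bp in a pool or combined list and none in the conservative list had weak ones. Rpl13 (−890 bp, 55.0), Rpl7 (+444 bp, 55.4), Rpl35 (−216 bp, 53.3), Rpl30 (+435 bp, 49.4), Rpl27a (−132 bp, 40.4) and Rpl4 (−20 bp, 33.1) had theirs in the combined list. Rps6 (+249 bp, 31.8), Rps7 (−32 bp, 25.6) and Rpl29 (+34 bp, 20.5) had theirs in pool E only. Of the 50 members without a conservative summit within 1000 bp, 36 (72.0%) had a ranked candidate there, against 34.3% of all 16408 such genes. The sets were not matched for CpG-rich starts, and the part of base composition in this contrast was not tested. Apart from Rplp0 and Rpl36 the members' strongest candidates were below 60 in strength (34 of 36). Weak candidates are what this choice of starts leaves. Over the whole ranked list 0.891% of candidates below 50 passed, and 99.6% of those between 100 and 200. A consensus match lay at 5 of the 36 (13.9%). Neither the strengths nor the matches were counted for the other genes without a conservative summit within 1000 bp.

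Consensus matches were counted at the member summits that passed. Within 5000 bp 51 of 70 summits carried one (72.9%, interval 61.5 to 81.9), against 64.0% of all 9121. Within 1000 bp the count was 18 of 31 (58.1%, interval 40.8 to 73.6), against 49.6% of 4364; these summits are part of the 70, and the intervals overlap. Windows 2000 bp to each side of the member summits held a match in 5 of 140 cases (3.57%). The strong summits at Rpl10a, Rpl13a, Rps15, Rps20 and Rpl32 had none with at most 2 mismatches. Within 1000 bp the median strength was 429 with a match and 317 without. The motif pointed along the gene at 31 of the 51 and against it at 20, and within 1000 bp at 10 and 8 of the 18. Orientation was not counted over all summits near coding starts, so these counts do not set the members apart.

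Seen from the gene outwards, the nearest motif-bearing summits beyond its ends enclosed a median of 40653 bp for the members and 108634 bp for all genes. The motifs pointed at each other across the gene at 8 of 76 members (10.5%), among them Rpl11, Rpl32 and Rps26, and away from each other at 27 (35.5%). Over all genes these shares were 28.9% and 24.9%. Taking only genes whose interval lay between the members' quartiles of 20776 and 75452 bp, the shares of pairs pointing at each other were 10.5% (4 of 38) and 26.7% (1766 of 6618). Members that share an interval share its pair. A summit lay inside the gene at 18 members (23.7%) and at 46.7% of all genes, but the members are short, with a median length of 3399.5 bp against 17629 bp. Per 10 kb of gene the members had 0.698 summits and all genes 0.226. In a short gene more of the length lies close to the start. The density was not compared with genes of like length, so the part of length in it was not tested.

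A run of at least 8 pyrimidines that reached the bases from 5 before to 10 after the annotated start was found at 23 of 76 members (30.3%) and 12% of all genes, and at 25.6% of translation factor genes. The longest was at Rpl32 (17 bases), then Rpl26 and Rpl4 (14 each). Since the window follows the annotated start, a start placed a few bases off can miss the run. Small nucleolar RNA genes lay inside 27 members (35.5%) and inside 1.17% of all genes, with 5 in Rpl4 and 4 in Rpl13a. They also lay inside 20.5% of translation factor genes and 15.4% of ribosome biogenesis genes. The share was 2.08% over proteasome genes and 0% over mitochondrial ribosomal protein genes. Of the 27 member hosts, 8 had a summit within 1000 bp, against 26 of all 76 members. The share over all host genes was not computed.

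In the 300 bases from 250 before to 50 after the start, read on both strands, the ETS motif CCGGAAG occurred at 28.9% of the members and 11.0% of all genes, and at 18.9% of those with a CpG-rich start. It occurred at 34.6% of mitochondrial ribosomal protein genes, 33.3% of proteasome genes, 30.8% of translation factor genes, 16 of 39 ribosome biogenesis genes and 8 of 15 RNA polymerase I genes, each a larger share than in the members. The core AAGATGG of the YY1 motif occurred at 9 members (11.8%) and 6.24% of all genes, and at 16.7% of both mitochondrial ribosomal protein and proteasome genes. A CTCF consensus match with at most 2 mismatches lay in this window at 12 members (15.8%) and at 15.9% of all genes, and at 21.9% of those with a CpG-rich start. A coding gene began within 1000 bp in the opposite direction at 8 members (10.5%) and 6.97% of all genes, against 23.1% of mitochondrial ribosomal protein genes.

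Other genes of protein synthesis were taken as lists. Of 39 translation factor genes, 12 had a summit within 1000 bp (30.8%) and 19 within 5000 bp (48.7%). The strongest were at Eif3g (−60 bp, 618) and Eif3f (−250 bp, 586), which encode parts of the initiation factor that holds the small subunit, and at Eef2 (−1430 bp, 576), which encodes the translocating elongation factor. Of 39 ribosome biogenesis genes, 10 (25.6%) and 18 (46.2%) had one. Nob1 (−97 bp, 635), the nuclease that trims the small subunit RNA, led them, with Nop14 (−221 bp, 595) and Utp3 (−280 bp, 521). Of 15 RNA polymerase I genes 3 had one within 1000 bp and 9 within 5000 bp, with the strongest at Cd3eap (−4637 bp, 581), Taf1c (−80 bp, 520) and Twistnb (−130 bp, 511). Of 12 growth signalling genes 2 (16.7%) and 5 (41.7%) had one. These were led by Tsc2 (+3762 bp, 609), which restrains mTOR, Myc (−1962 bp, 508) and Mlst8 (+351 bp, 499). The lists of 15 and 12 genes are too short to tell from the members: their intervals within 1000 bp run from 7.05 to 45.2% and from 4.70 to 44.8%.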

How the data were processed

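Peaks were analysed as the authors deposited them. The deposited score in each list is a peak strength of unstated scale, and the authors gave each ranked peak its IDR as a −log10 value. Technical replicates were merged and 1 control alignment was shared, per the labels; the aligner, peak caller and versions are not given in the sources used here. Depth is unknown. Technical replicates have no separate values. The labels number the pools as biological replicates, and their values are shown side by side without a spread.

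Distances from gene starts (GENCODE M21, mm10) to summits, consensus matches within 50 bp of a summit, start composition and motif counts were computed in Python 3.11 with pandas and pysam; peak partners came from bedtools. The distance and motif code was tested on simulated data. The 76 genes, the lists and the windows were chosen with earlier results of these data known, so shares are described beside those of all genes, with 95% Wilson intervals, and without tests.

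Genes were named by rule: every member with a summit within 1000 bp; the 10 with the strongest within 5000 bp; paralogues; members with a summit within 1000 bp in another list only; the 5 farthest; genes the rule leaves out; and the 3 strongest of each other list. Genes named for shared summits, window edges, flanking motifs or start motifs were chosen after their values were seen. Alternatives were other lists, thresholds, windows, starts and motif settings. Some members and related genes are not reported here by name; they are counted in every total.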

Additional observations from a re-analysis of the deposited data

How the results depend on the processing

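The members' share exceeded that of all genes under each of the 21 alternatives where both were computed. These alternatives draw on overlapping sets of the same peaks, so their agreement is not independent. In this count the members were set beside all genes and not beside genes with a CpG-rich start. Of 45 alternatives over 7 results, 33 stayed within the main interval (or within 1.5 times a count). With motif-bearing summits only, the shares within 1000 and 5000 bp fell to 18.4% and 43.4% (all genes 10.8% and 26.9%) and the median distance was 5821 bp. The strongest 21081 peaks gave 46.1% within 5000 bp and 5890 bp. Windows of 10000 and 20000 bp held a summit for 82.9% and 94.7% of members (all genes 51.2% and 67.1%). The share of summits with a match was 27.1% at 1 mismatch and 88.6% at 3. The strongest summit had a median strength of 248 with pool E and 150 with pool F, whose scores rest on 1 pool each. At a reciprocal overlap of 80%, 6 member summits had partners in both pools. Unknown depth and the IDR threshold limit what an absent summit shows. No paired analysis was possible because no test was made and each list merges its libraries.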
